A study of Mus musculus with 10 samples.

Results

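The genes described here are 37 imprinted mouse genes, among them H19 and Igf2, followed in the left ventricle (LV) of young mice under pressure overload. They are a list of members of known imprinted loci, drawn up when the fall of H19 in these data was already known, and were found by symbol among the 55401 genes of the deposited tables. RNA sequencing was done on LV tissue of 10 wild-type mice at 4 weeks of age, 5 after neonatal ascending aorta constriction (nAAC) and 5 after sham surgery, with 1 library per mouse. The aorta was narrowed by surgery in newborns, so every nAAC mouse grew up under load, while sham mice had an operation without constriction. Of the 37 genes, 25 had a mean of at least 1 FPKM over the 10 mice and entered a test that spanned 11867 genes. FPKM counts sequenced fragments after division by transcript length in kilobases and by library depth.

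An imprinted gene is expressed from the copy of 1 parent, because DNA methylation laid down in the germ line marks an imprinting control region that neighboring genes share. Paternally expressed genes such as Igf2 tend to promote growth before birth, and maternally expressed genes such as H19, Cdkn1c and Grb10 tend to restrain it. Many of these genes are expressed strongly in the fetal heart and fall together after birth as growth slows. The libraries do not separate the alleles, so each value is the sum of both copies, and the parental copy named for a gene is background knowledge.

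H19 and Igf2 had the largest decreases among the tested members in nAAC hearts, and Cdkn1c, Plagl1, Snrpn and Asb4 fell too. Meg3 and Rian, noncoding RNAs of another imprinted cluster, were higher in nAAC hearts, and so were Grb10, Ndn and Impact. The other 14 tested members did not pass the test. Thus 5 members rose and 6 fell at an adjusted p below 0.05 by limma, beside 27.1% of all tested genes that rose and 4.6% that fell. With a fold change threshold added, a log2 fold change (FC) above 1 in either direction, 1 member (Meg3) rose beside 5.01% of all genes and 3 members (H19, Igf2 and Cdkn1c) fell beside 0.893%. H19 was known to be lower when the members were listed, so these counts are not independent of it. Plagl1 and Asb4, counted among the 6, had nAAC means below 1 FPKM (0.956 and 0.676). They entered the test through their sham values (means of 2.14 and 1.42 FPKM).

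The general level of the libraries bears on these counts. The median log2 FC of all tested genes was 0.22, so most genes had a higher FPKM in nAAC mice, and it became -0.0008 when each library was divided by its median ratio to the geometric mean of the 10 libraries. The share of TPM on mitochondrial genes also moved with the groups, at 32.8% to 39.9% in nAAC, 46.5% to 49.8% in sham mice 1 to 3, 33.7% in sham mouse 4 and 38.3% in sham mouse 5, and its part in the shift was not tested. The median of the 25 members was 0.059 in the deposited FPKM and -0.17 after this scaling. Of the 25, 12 had a lower mean in nAAC hearts, beside 23.4% of all genes, and 18 did after scaling, beside 50.1%. After scaling, the members that rose were 2, Meg3 and Rian, beside 13.2% of all genes, and those that fell were 8, with Nap1l4 and Blcap added to the 6, beside 12.1%.

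H19 and Igf2 contain miRNA genes, as do Meg3 and Rian, and 1 miRNA gene is shown for each of these hosts. Those of miR-675 and miR-770 share bases with exons of the host, and those of miR-483 and miR-370 share none. Also annotated, but not shown, are miR-1906 within Meg3 and miR-341 and miR-1188 within Rian. The mature sequences are those of RefSeq on GRCm38.p6, written 5′ to 3′ with the seed (bases 2 to 8) in capitals, and no seed is shared among these 8. The libraries measured the host transcripts and gave no value for a mature miRNA.
miR-675-5p (within H19): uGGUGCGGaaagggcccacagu
miR-675-3p (within H19): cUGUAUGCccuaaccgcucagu
miR-483-5p (within Igf2): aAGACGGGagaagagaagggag
miR-483-3p (within Igf2): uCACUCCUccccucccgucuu
miR-770-5p (within Meg3): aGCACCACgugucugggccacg
miR-770-3p (within Meg3): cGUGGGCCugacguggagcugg
miR-370-5p (within Rian): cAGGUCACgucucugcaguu
miR-370-3p (within Rian): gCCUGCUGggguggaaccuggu

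H19 and Igf2 lie on the minus strand of chromosome 7, at chr7:142575529-142578143 and chr7:142650766-142666816 in mm10, and share 1 imprinting control region and enhancers. H19, the maternally expressed noncoding RNA, was at 1.65, 2.42, 2.17, 2.17 and 3.69 FPKM in nAAC mice 1 to 5. In sham mice 1 to 5 it was at 15.6, 11.01, 10.3, 24.1 and 18.1 FPKM. Every nAAC mouse was below every sham mouse, and the means were 2.42 ± 0.764 against 15.8 ± 5.62 FPKM (SD, n = 5 each), a 6.53-fold lower mean. The log2 FC was -2.26 (SE 0.22, limma adjusted p = 7.36e-06), the 8th lowest of the 11867 genes. In RNA from whole tissue, fewer cells of a type and less RNA per cell cannot be told apart.

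Igf2, which encodes insulin-like growth factor 2 and is expressed from the paternal copy, fell together with H19. It was at 2.46, 4.05, 1.83, 5.69 and 7.10 FPKM in nAAC mice 1 to 5. Sham mice 1 to 5 had 18.3, 17.6, 17.7, 12.2 and 15.6 FPKM. The groups did not overlap, and the means were 4.23 ± 2.19 and 16.3 ± 2.49 FPKM (SD, n = 5 each), 3.85-fold apart. The log2 FC was -1.82 (SE 0.25, limma adjusted p = 1.55e-04), the 21st lowest of all tested genes. For both genes the two-sided exact permutation test of 5 against 5 mice gave p = 0.0079, the smallest it can give. The ratio of Igf2 to H19 within a mouse did not pass the test. The log2 value of Igf2 minus that of H19 was 0.53 ± 0.47 in nAAC and 0.088 ± 0.67 in sham mice (SD, n = 5 each; exact permutation p = 0.262, adjusted p = 0.337 over 9 pairs of neighboring genes).

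**Figure D1:**
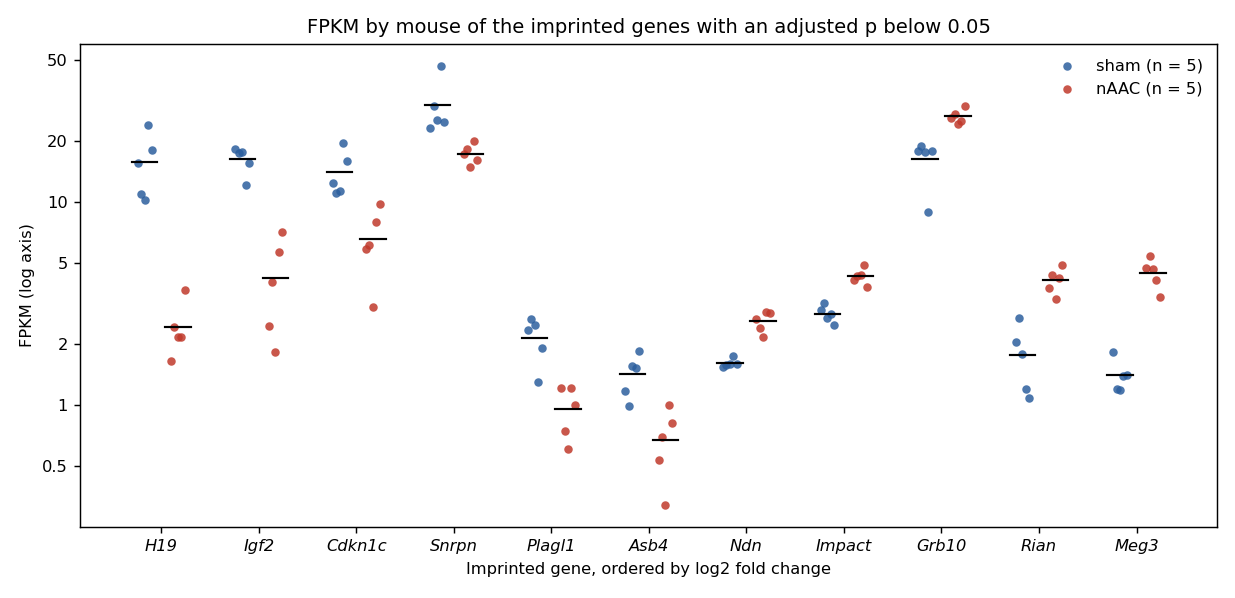
FPKM (log axis) of the 11 imprinted genes with an adjusted p below 0.05, 1 point per mouse, sham in blue and nAAC in red, black lines at group means. H19 lies between 1.65 and 3.69 in nAAC and between 10.3 and 24.1 in sham mice, and Asb4 is the gene among the 11 whose groups overlap.

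Cdkn1c, which encodes the cyclin-dependent kinase inhibitor p57 and is expressed from the maternal copy, lies in the neighboring Kcnq1 domain. It was at 5.89, 6.17, 3.03, 8.02 and 9.81 FPKM in nAAC mice 1 to 5 and at 12.4, 11.2, 11.4, 19.7 and 15.9 FPKM in sham mice 1 to 5. The groups did not overlap, and the log2 FC was -1.04 (SE 0.24, limma adjusted p = 0.0054). The log2 FC was inside 1 without nAAC mouse 3 (-0.83), sham mouse 4 (-0.92) or sham mouse 5 (-0.99) and in TPM (-0.92), with an adjusted p below 0.05 in each. Nap1l4, a nucleosome assembly protein of the same domain, was at 49.1 ± 3.68 in nAAC and 49.6 ± 5.59 FPKM in sham mice (SD, n = 5 each). The log2 value of Nap1l4 minus that of Cdkn1c was 2.80 in nAAC and 1.77 in sham mice (difference 1.03, exact permutation p = 0.0079, adjusted p = 0.024 over the 9 pairs), so the neighbors differed in their change. Of the rest of the domain, Phlda2 was listed at 0 in all 10 mice, and Kcnq1ot1 and Slc22a18 had means below 0.2 FPKM in both groups. Kcnq1ot1 is the long noncoding RNA that silences the domain on the paternal copy.

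Plagl1, a paternally expressed zinc finger transcription factor known to regulate other imprinted genes, was low but separated the groups. Its values were 1.21, 0.745, 0.607, 1.22 and 0.996 FPKM in nAAC and 2.35, 2.66, 2.47, 1.31 and 1.91 FPKM in sham mice 1 to 5. The log2 FC was -0.68 (SE 0.15, limma adjusted p = 0.0038), which on the log2(FPKM + 1) scale understates the 2.24-fold difference of the means. Snrpn, a paternally expressed component of small nuclear ribonucleoproteins, was at 17.2, 18.3, 14.96, 20.01 and 16.2 FPKM in nAAC and at 23.4, 29.7, 25.3, 47.0 and 24.8 FPKM in sham mice 1 to 5. All nAAC mice were below all sham mice (log2 FC -0.72, SE 0.18, limma adjusted p = 0.0080), and without sham mouse 4 the log2 FC was -0.55 (adjusted p = 0.0033). Snrpn shares exon bases with Snurf and Gm38393 on the same strand, so reads could have been split among the 3. Both were also lower in nAAC hearts, at means of 0.121 against 0.279 FPKM for Snurf and 0.444 against 1.14 FPKM for Gm38393. The part of such a split in the fall of Snrpn was not tested.

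Ndn, a MAGE family protein gene from the same chromosomal domain as Snrpn and also paternally expressed, went the other way. It was at 2.66, 2.40, 2.15, 2.87 and 2.85 FPKM in nAAC mice and at 1.53, 1.58, 1.60, 1.75 and 1.59 FPKM in sham mice 1 to 5, with no overlap (log2 FC 0.46, SE 0.10, limma adjusted p = 0.0033). After median-ratio scaling the log2 FC was 0.27 with an adjusted p of 0.052, so the call depends on the scaling. The ratio of the neighbors does not depend on library scaling beyond the pseudocount. The log2 value of Snrpn minus that of Ndn was 2.35 ± 0.13 in nAAC and 3.52 ± 0.36 in sham mice (SD, n = 5 each; exact permutation p = 0.0079, adjusted p = 0.024). Of the other genes of the domain, Magel2 was listed at 0 in all mice. Peg12 was at 0.381 ± 0.0703 in nAAC and 0.197 ± 0.0671 FPKM in sham mice (SD, n = 5 each), below the minimum for the test.

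Meg3 and Rian are maternally expressed noncoding RNAs of the Dlk1-Meg3 cluster on chromosome 12, at chr12:109541001-109571726 and chr12:109603808-109661716 in mm10. Rian is a host of small nucleolar RNAs. Meg3 was at 4.75, 5.42, 4.71, 4.14 and 3.42 FPKM in nAAC mice and at 1.83, 1.203, 1.19, 1.39 and 1.41 FPKM in sham mice 1 to 5, a 3.20-fold higher mean without overlap. Its log2 FC was 1.19 (SE 0.12, limma adjusted p = 1.29e-05), and 0.99 after scaling (adjusted p = 1.35e-04). Rian was at 3.76, 4.37, 3.34, 4.25 and 4.89 FPKM in nAAC and at 2.04, 2.69, 1.79, 1.201 and 1.08 FPKM in sham mice 1 to 5. It did not overlap either, with a log2 FC of 0.92 (SE 0.16, limma adjusted p = 8.21e-04) that was 0.71 after scaling (adjusted p = 0.0100). These were the members whose rise passed the test under both scalings. In scaled coverage (coverage times each library's most frequent ratio of FPKM to coverage) both were at low levels. Meg3 had means of 0.58 in nAAC and 0.19 in sham mice, and Rian 0.22 and 0.099, again without overlap. Their FPKM was 7.62 and 18.3 times that coverage, and both fell below a minimum of 1 set on it. The log2 value of Rian minus that of Meg3 did not pass the test (difference -0.27, exact permutation p = 0.254, adjusted p = 0.337).

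The other genes of the cluster were too low for the test. Mirg, a noncoding miRNA host transcribed in the same direction as Meg3, ranged from 0.0484 to 0.62 FPKM in nAAC and from 0 to 0.202 FPKM in sham mice. Rtl1, a retrotransposon-derived gene, had means of 0.0678 and 0.0138 FPKM. Dlk1, a paternally expressed transmembrane protein of the Notch ligand family, was listed at 0.00794, 0, 0, 0.0123 and 0 FPKM in nAAC and at 0.0599, 0.0298, 0.0386, 0.0968 and 0.0890 FPKM in sham mice 1 to 5. The Dlk1 values did not overlap between groups but are too near 0 to give a fold.

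**Figure D2:**
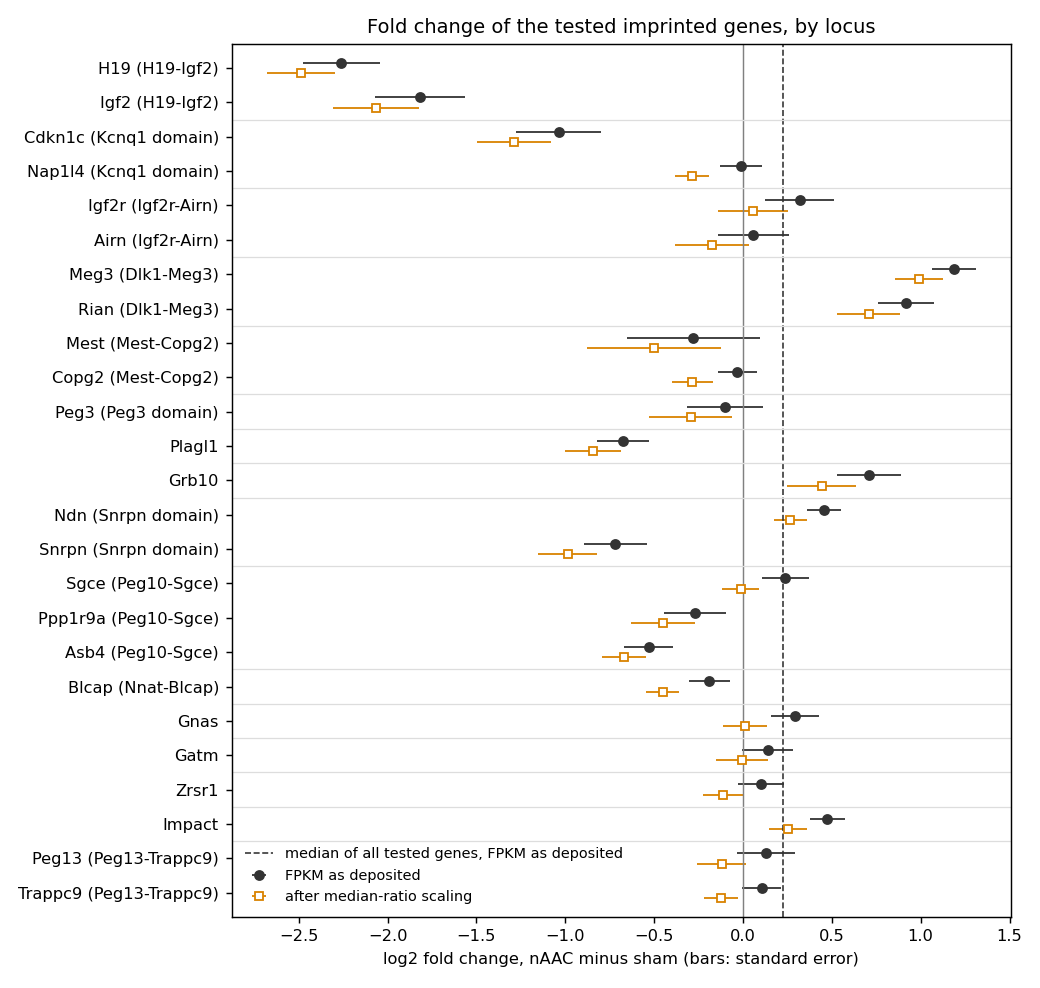
Log2 FC (nAAC minus sham) with its standard error for the 25 tested imprinted genes, grouped by locus, in the deposited FPKM (black circles) and after median-ratio scaling (orange squares), with a dashed line at the median of all tested genes (0.22). H19 and Igf2 lie farthest to the left under both scalings, and Meg3 and Rian farthest to the right.

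Grb10 encodes an adapter protein that restrains signaling from the insulin and IGF receptors, and is expressed in the heart mainly from the maternal copy. It was at 25.9, 27.3, 24.4, 25.2 and 29.7 FPKM in nAAC mice and at 17.8, 19.02, 17.8, 8.99 and 17.9 FPKM in sham mice 1 to 5. Sham mouse 4 was far below the other sham mice. The groups did not overlap in the deposited FPKM but did after scaling. The log2 FC was 0.71 (SE 0.18, limma adjusted p = 0.0090), 0.52 without sham mouse 4 (adjusted p = 0.0015), and 0.44 after scaling, where it did not pass (adjusted p = 0.116). Impact, a paternally expressed inhibitor of the GCN2 kinase, was at 4.16, 4.31, 4.36, 4.91 and 3.83 FPKM in nAAC and at 2.95, 3.18, 2.69, 2.83 and 2.49 FPKM in sham mice 1 to 5. The groups did not overlap (log2 FC 0.47, SE 0.10, limma adjusted p = 0.0030). After scaling they overlapped, and the log2 FC was 0.25 and did not pass (adjusted p = 0.101).

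Igf2r encodes the receptor that takes IGF2 to the lysosome, and Airn is the noncoding RNA transcribed across it from the other strand. Igf2r was at 19.6, 14.3, 15.1, 16.3 and 14.3 FPKM in nAAC and at 12.5, 13.7, 12.9, 7.14 and 18.6 FPKM in sham mice 1 to 5. The groups overlapped, and the log2 FC of 0.32 (SE 0.19) did not pass the test (limma adjusted p = 0.225). Airn was at 5.22 ± 0.921 in nAAC and 5.13 ± 1.65 FPKM in sham mice (SD, n = 5 each). The 2 genes share no exon bases, but Airn lies across Igf2r introns, and the library kit is not described as strand specific, so unspliced Igf2r reads and Airn reads cannot be told apart.

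In the Peg10-Sgce cluster on chromosome 6, Asb4, a maternally expressed gene for a subunit of a ubiquitin ligase, was lower in nAAC hearts. Its values were 0.538, 0.699, 0.322, 1.004 and 0.814 FPKM in nAAC and 1.17, 0.987, 1.56, 1.52 and 1.85 FPKM in sham mice 1 to 5. The groups overlapped by nAAC mouse 4 and sham mouse 2 (log2 FC -0.53, SE 0.14, limma adjusted p = 0.011), and did not overlap after scaling. Sgce, which encodes epsilon-sarcoglycan of the muscle membrane complex, was at 9.55 ± 1.52 in nAAC and 7.93 ± 1.15 FPKM in sham mice (SD, n = 5 each; limma adjusted p = 0.183). The log2 value of Asb4 minus that of Sgce was -2.66 ± 0.084 in nAAC and -1.89 ± 0.16 in sham mice (SD, n = 5 each; exact permutation p = 0.0079, adjusted p = 0.024). Ppp1r9a, which encodes neurabin, had a log2 FC of -0.27 (limma adjusted p = 0.247), and without sham mouse 4 it passed the test (-0.44, adjusted p = 0.012). Peg10 had means of 0.28 and 0.173 FPKM and was not tested.

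The members left did not pass the test in the deposited FPKM. Mest, a marker of embryonic mesoderm, ranged from 1.99 to 5.17 FPKM in nAAC and from 1.59 to 11.4 FPKM in sham mice, the widest spread among sham mice on the log scale of any tested member. Gnas, the stimulatory G protein subunit, was at 422.1 ± 33.3 in nAAC and 345.4 ± 39.6 FPKM in sham mice (SD, n = 5 each; log2 FC 0.29, limma adjusted p = 0.110). Blcap had a log2 FC of -0.19 (adjusted p = 0.226) that became -0.45 after scaling (adjusted p = 0.0029), and Nap1l4 moved from -0.011 to -0.29 (adjusted p = 0.042). Copg2, Peg3, Gatm, Zrsr1, Peg13 and Trappc9 had log2 FCs between -0.10 and 0.14. Usp29, Zim1 and Nnat had means below 0.5 FPKM in both groups and were not tested. Some of these genes lie over each other on opposite strands, Mest with Copg2, Zrsr1 with Commd1 and Blcap with Nnat, so their reads could not be separated by strand.

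**Figure D3:**
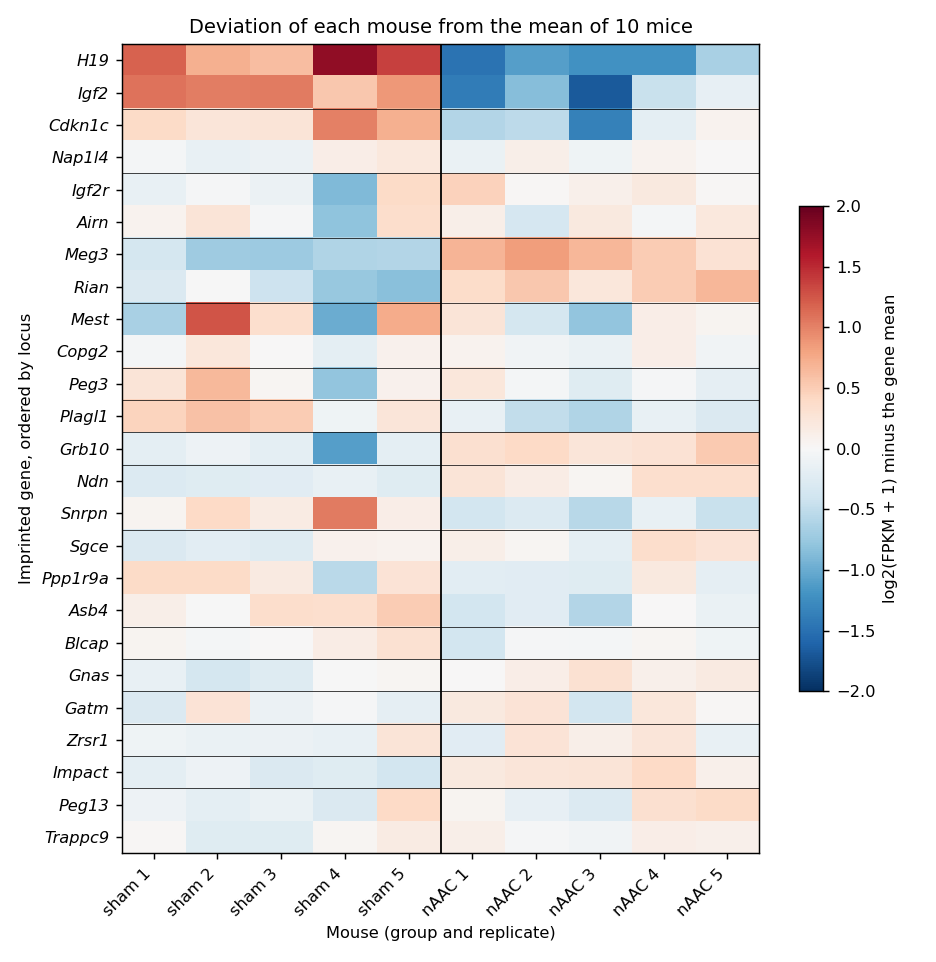
Deviation of each mouse from the mean of all 10 mice in log2(FPKM + 1), for the 25 tested imprinted genes (rows, by locus, with thin lines between loci) and the 5 sham and 5 nAAC mice (columns). H19 and Igf2 are above their mean in every sham mouse and below it in every nAAC mouse, Meg3 shows the opposite, and Mest varies most among the sham mice.

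Of the 6 members that fell, 5 (all but Asb4) share some exon bases with an annotated gene on the other strand. Those partners were listed at most at 0.048 FPKM in either group (Igf2os beside Igf2), far below the members themselves. H19, Igf2 and Cdkn1c shared these bases with 2, 1 and 1 such genes.

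Members that rose and members that fell occurred in both parental classes. Of 12 tested maternally expressed members, 3 rose and 3 fell, with a median log2 FC of 0.047, beside 27.1% and 4.6% of all tested genes and their median of 0.22. Of 11 paternally expressed members, 2 rose and 3 fell, with a median of 0.059. After scaling, 2 maternally expressed members rose and 4 fell (median -0.21, 8 of 12 below 0), and 0 paternally expressed members rose and 3 fell (median -0.17, 9 of 11 below 0), beside 13.2% and 12.1% of all genes. The classes follow background knowledge, not alleles measured in these hearts, and were not tested against each other. Both members with parental expression that depends on the isoform, Gnas and Blcap, did not pass in the deposited FPKM. After scaling Blcap fell (-0.45, limma adjusted p = 0.0029) and Gnas did not pass. In the deposited FPKM the groups did not overlap for 5 members that were higher in nAAC mice (beside 18.9% of all tested genes) and for 5 that were lower (beside 3.46%).

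Within loci, 3 of the 9 pairs of neighbors changed in ratio at an adjusted p below 0.05. These were Cdkn1c with Nap1l4, Ndn with Snrpn and Sgce with Asb4. Each of these 3 holds a member called lower by itself (Cdkn1c, Snrpn or Asb4). The share of gene pairs in general that changed was not taken, so the count is no result about imprinted loci. In the other 6 pairs the difference between groups lay from -0.51 to 0.44 on the log2 scale, with adjusted p from 0.171 to 0.857 by the exact permutation test. Among them, Ppp1r9a with Sgce passed only when sham mouse 4 was left out (-0.73, adjusted p = 0.036), and the sign for Trappc9 with Peg13 changed with the mouse left out.

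**Figure D4:**
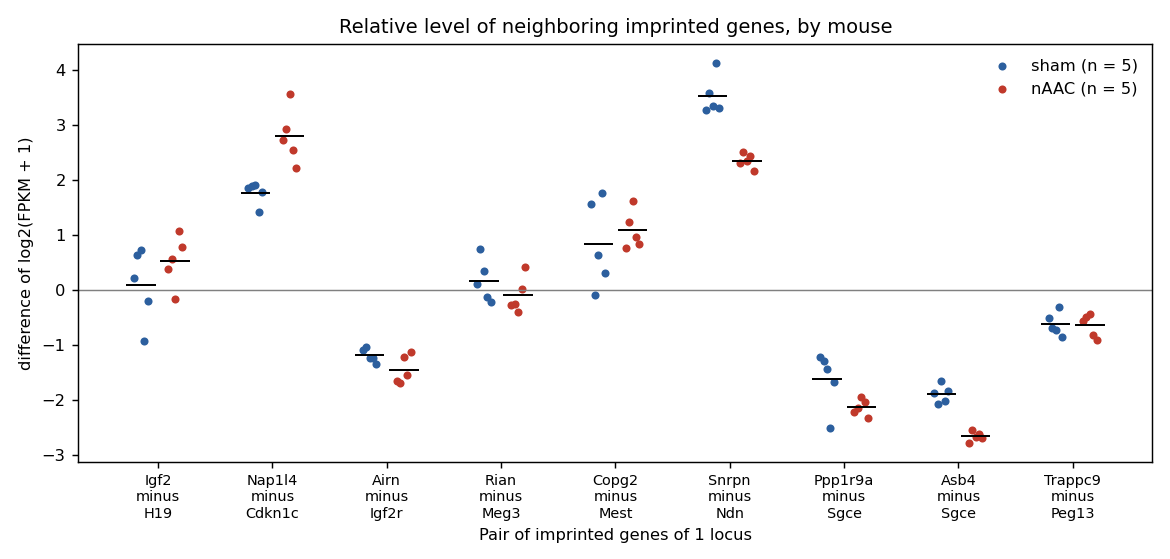
Difference of log2(FPKM + 1) between 2 imprinted genes of 1 locus in each mouse, for 9 pairs, sham in blue and nAAC in red, with black lines at group means. The groups separate for Nap1l4 with Cdkn1c, Snrpn with Ndn and Asb4 with Sgce, and overlap for Igf2 with H19.

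Promoter sequences were searched for motifs of 2 factors tied to these loci. RefSeq promoter windows of 300 bases (250 before to 50 after the start) were at hand for 28 of the 37 members in 43 windows, not for H19 or Cdkn1c. GGGGCCCC, a motif of PLAGL1, was present on either strand in 3 of the 43 windows (Peg3, Ppp1r9a and Usp29), beside 1.08% of all 32851 windows. The windows of Peg3 and Usp29 overlap and hold the same match, so these are 2 sites. GGNGGCAG, a part of the core motif of CTCF, the insulator protein of imprinting control regions, was in 5 of the 43 (Gnas, Grb10, Igf2, Phlda2 and Rian), beside 12.6% of all.

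Other imprinted genes were followed as a separate list of 44, of which 43 were in the tables and 22 were tested. Of these, 8 rose and 1 fell, beside 27.1% and 4.6% of all tested genes. After scaling 4 rose and 3 fell, beside 13.2% and 12.1%. Dcn, which rose (0.47), is also on the fibroblast marker list. The largest differences were Axl, a receptor tyrosine kinase, with a log2 FC of 1.17 (SE 0.15, limma adjusted p = 6.58e-05), the amino acid transporter Slc38a4 (0.90), the actin nucleator Cobl (0.84) and the lipid transfer protein Osbpl5 (0.70). Ddc was the one that fell (-0.35, adjusted p = 0.048). In a list of 18 imprinted genes described as a growth network that declines after birth, 16 of which are members here, 5 of 15 tested genes rose and 4 fell, beside 27.1% and 4.6% of all tested genes, or 2 and 4 after scaling, beside 13.2% and 12.1%. Of genes without imprinting that decline after birth, 3 of 13 could be tested and 2 rose, Mycn (0.65) and the IGF2 mRNA binding protein Igf2bp2 (0.56).

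Among IGF receptors and signaling genes, 7 of 16 rose and 1 fell, beside 27.1% and 4.6% of all tested genes. After scaling 1 rose and 2 fell, beside 13.2% and 12.1%. Igf1, the other IGF ligand, was at 6.16 ± 1.44 in nAAC and 2.24 ± 0.58 FPKM in sham mice (SD, n = 5 each; log2 FC 1.14, SE 0.17, limma adjusted p = 2.35e-04; 0.92 after scaling, adjusted p = 0.0015), opposite in direction to Igf2. Igf1r, the receptor through which both ligands signal, had a log2 FC of 0.58 (adjusted p = 0.012) that did not pass after scaling (0.37, adjusted p = 0.138). Pik3r1, a regulatory subunit of PI3 kinase, fell (-0.83, adjusted p = 0.011). Of 15 tested factors that maintain imprints, the histone methyltransferase Ehmt2 rose (0.47, adjusted p = 0.034) and no other passed, and none passed after scaling. Dnmt1, the maintenance methyltransferase, was at 2.64 ± 0.497 and 2.29 ± 0.569 FPKM (SD, n = 5 each; adjusted p = 0.420).

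Several features of the tissue moved with the groups, and their part in the results above was not tested. Of 10 tested genes of the fetal and hypertrophy program, 8 rose and 1 fell, with Acta1 (log2 FC 6.52), Nppa (6.07), Nppb (5.12) and Ankrd1 (3.72) leading. The 1 that fell was Atp2a2 (-0.87). After scaling 7 rose and 2 fell, with Myh6 added to Atp2a2. Of 9 fibroblast markers, 7 rose and none fell (5 after scaling), with Postn (3.78) and Col1a1 (2.09) among them, and their summed FPKM was 633 to 1128 in nAAC and 404 to 470 in sham mice. Among other lists, 4 of 7 mural cell, 3 of 8 macrophage and leukocyte, 1 of 8 endothelial and 1 of 4 tested atrial markers rose. None of these lists had a gene that fell in the deposited FPKM, where 27.1% of all tested genes rose and 4.6% fell. The atrial marker that rose was Nppa, which is also in the fetal and hypertrophy program. Of the atrial markers that did not pass, Myl4 ran from 1.34 to 128 FPKM in nAAC and 1.82 to 17.8 in sham mice. Myl7 ran from 0.654 to 79.8 and 1.16 to 22.3 FPKM. Of 10 cardiomyocyte markers 1 rose (Actc1) and 2 fell (Tnni3 and Pln), or 0 and 3 after scaling with Myh6 added. After scaling, 3 mural and 2 macrophage and leukocyte markers rose, 1 mural marker fell (Abcc9) and no endothelial marker passed. Of all tested genes 13.2% rose and 12.1% fell after scaling. No epicardial (5 tested), erythroid (5), adipocyte (1) or skeletal muscle (1) marker passed in the deposited FPKM, while Fabp4 of the adipocyte and Ckm of the skeletal muscle list fell after scaling. Myh4, a defining marker of skeletal muscle, was listed at 0 in all mice, and the adipocyte marker Adipoq at a mean of 0 in nAAC and 0.158 FPKM in sham mice.

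The libraries held an estimated 4.86 to 6.82 gigabases in nAAC and 5.06 to 5.24 in sham mice, read off from the ratio of FPKM to coverage that most often recurred among genes. Sham mouse 4 stood apart from the other 9, with a Spearman correlation across genes of -0.592 between deviation from the gene mean and transcript length beside -0.191 to 0.334 in the others. It was the highest sham mouse for H19, Cdkn1c and Snrpn and the lowest for Igf2, Igf2r, Plagl1 and Grb10. All 11 calls held without it. Xist, expressed in females, was at 14.8 to 17.9 FPKM in 4 nAAC mice and at 0.0232 in the other, and at 10.6, 3.70 and at most 0.0168 FPKM in sham mice 5, 4 and the other 3, and the labels give no sex. With Xist as a covariate the log2 FC was -2.46 for H19 and -1.72 for Igf2 (limma adjusted p = 4.69e-05 and 0.0025). The ratio of FPKM to scaled coverage ran from 1 to 28.7 among the tested members, so levels were compared between mice and not between genes.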

How the data were processed

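Each mouse has 1 table deposited by the authors, with coverage (mean reads per base), FPKM and TPM by gene, on mm10 per the submitters' processing notes. Their aligner, counting tool and test are not given in the sources used here, and the layout is that of StringTie. The kit, NEBNext Ultra, is not named as directional. Coordinates matched GENCODE M21 for 99.35% of shared genes. The deposited FPKM adjusts for depth and length, not for RNA composition, and the deposited TPM scales each library to a common sum. The deposited coverage served for depth and for alternatives. Such values hold no counts, so no count test was run.

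Groups came from the labels. Rows sharing a gene identifier were summed. Limma 3.58.1 in R 4.3.3 was fitted to log2(FPKM + 1) with an empirical Bayes trend over the 11867 genes whose FPKM averaged 1 or more, with Benjamini-Hochberg adjustment over all. Log2 FCs are on that scale. Ratios of 9 within-locus pairs were compared by two-sided exact permutation tests. All 37 members were accounted for, with values per mouse for members past the test and for H19, Igf2 and Igf2r, and up to 4 genes per other list. The members and lists were chosen with earlier results of these data known. Dlk1, Zfp57, other listed genes below the minimum for the test and marker genes outside that rule were named after their values were seen. The alternatives were median-ratio scaling, a pseudocount of 0.1, no filter, TPM, a replicate block, Xist as a covariate, removal of loess trends on GC content and length (99.9% of genes), leaving out each mouse, and scaled coverage and shared exons, added after the data were seen. The test was checked on simulated data. Labels do not say whether mice were littermates, and whether replicate numbers pair the mice is not known. Permutation tests ran in Python 3.11.15 with scipy 1.17.1, and plots were made in matplotlib 3.10.9.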

Additional observations from a re-analysis of the deposited data

Results flagged for a closer look

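Groups of 5 mice numbered 50 (25 members in each arm). In 5 of them, the gap of a mouse to the nearest other was above Dixon's critical value of 0.71. The gap was divided by the range of the group on the log2 scale. Chance alone flags about 2.5 if the groups are independent and normal, but the 25 groups of an arm share the same mice. The share flagged over all tested genes was not taken. Grb10 in sham mouse 4 was at 8.99 FPKM, below 17.8 to 19.02 in the other sham mice (ratio 0.908). Ppp1r9a in sham mouse 4 was at 0.797 FPKM, below 1.97 to 2.42 (ratio 0.78), and in nAAC mouse 4 it was at 2.01 FPKM, above 1.21 to 1.31 (ratio 0.85). In sham mouse 5, Zrsr1 was at 4.24 FPKM, above 2.94 to 3.12 (ratio 0.847), and Peg13 at 10.6 FPKM, above 6.27 to 7.26 (ratio 0.728). Zrsr1 and Peg13 did not pass the test between groups.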

How the results depend on the processing

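H19 and Igf2 were lower in nAAC hearts at an adjusted p below 0.05 by limma under all 19 alternatives, with log2 FCs from -2.64 to -2.10 and from -2.25 to -1.53. Under median-ratio scaling 2 members rose, 0 with the fold threshold, and the median of the members was -0.17. There, Grb10 (0.44), Ndn (0.27) and Impact (0.25) lost their call, Nap1l4 (-0.29) and Blcap (-0.45) gained one, and Airn (-0.17), Sgce (-0.014), Gatm (-0.0057), Zrsr1 (-0.11), Peg13 (-0.12) and Trappc9 (-0.13) changed sign without a call. With GC content and length trends removed 10 members fell, 0 rose past the fold threshold and the median was -0.18. In that fit 18 of the 25 members had a lower mean, beside 53% of all genes. Nap1l4 (-0.26), Ppp1r9a (-0.51) and Blcap (-0.48) then gained a call, Trappc9 (-0.30) turned to a call as lower, and Igf2r (-0.028), Airn (-0.075), Gnas (-0.16), Zrsr1 (-0.084) and Peg13 (-0.18) changed sign. In TPM, 2 members rose and 2 fell past the fold threshold, the median was 0.22, Gnas gained a call (0.46), and Nap1l4 (0.16), Copg2 (0.13) and Peg3 (0.030) changed sign. With Xist as a covariate 2 rose past the fold threshold, the median was -0.034, and Airn (-0.046), Peg3 (0.053), Peg13 (-0.059) and Trappc9 (-0.0080) changed sign. A pseudocount of 0.1 gave 2 members higher and 5 lower past the fold threshold. The share of all genes called was taken only for the deposited FPKM and for median-ratio scaling. Counts from the other fits, here and below, thus have no such share to be read against. Except where removing trends or scaling centers the libraries by construction, the cause was not tested.

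Leaving out 1 mouse at a time, members higher past the fold threshold numbered 1 to 2, with 2 (Meg3 and Rian) without sham mouse 2, members lower past it numbered 2 to 3, with 2 without nAAC mouse 3, sham mouse 4 or sham mouse 5, and no call among the 11 was lost. Log2 FCs without a call changed sign for Nap1l4 without nAAC mouse 1 (0.022) or 3 (0.0094) or sham mouse 4 (0.021) or 5 (0.040; range -0.050 to 0.040), for Airn without sham mouse 4 (-0.13), and, without sham mouse 2, for Mest (0.0020; lowest -0.56), Copg2 (0.019; lowest -0.083) and Peg3 (0.052; lowest -0.31), whose lowest values came without sham mouse 4. The ratio of Trappc9 to Peg13 ranged from -0.084 to 0.052, being 0.018, 0.044, 0.0042 and 0.052 without nAAC mouse 4 or 5 or sham mouse 1 or 4. That of Ppp1r9a to Sgce ranged from -0.73 to -0.41. With the replicate block, H19 was at -2.26 and Igf2 at -1.82 and no call or count changed. Samples with the same number correlated in their deviations by 0.192, -0.0953, -0.316, -0.0329 and 0.0409. The highest correlation of each nAAC mouse with any sham mouse was itself only 0.152 to 0.344. Such values cannot tell whether the numbers pair the mice.

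Both alternatives added after the data were seen were run in 2 versions each, and the second was chosen after the result of the first was known. Scaled coverage with its own minimum of 1 kept 16 of the 25 members, Meg3 and Rian not among them, and gave 3 higher and 4 lower. There, 0 were higher past the fold threshold, and Zrsr1 was at -0.026. Scaled coverage over the same genes as the FPKM, with a pseudocount of 0.1, gave 5 higher and 6 lower, with Zrsr1 at -0.036. Leaving out the 9 tested members that share exon bases with any annotated gene on the other strand left 1 lower, and 0 past the fold threshold, since H19, Igf2, Cdkn1c, Plagl1 and Snrpn are among the 9. Leaving out only the 3 whose partner had at least 0.1 times the member's FPKM changed no count. The files give no read counts, so no counting error can be put on low members such as Dlk1 or Asb4.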

Other observations

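Zfp57, the zinc finger protein that keeps methylation on imprinting control regions after fertilization, had a mean below 1 FPKM over the 10 mice and so stood outside the test. It was at 0.916 to 1.70 FPKM in nAAC and 0.239 to 0.529 FPKM in sham mice, without overlap. With no filter on low values its log2 FC was 0.68 (limma adjusted p = 0.0022). In the same fit Dlk1 had a log2 FC of -0.082 (limma adjusted p = 0.014) and Peg12 one of 0.21 (limma adjusted p = 0.023). The groups of Peg12 did not overlap in the deposited FPKM but did after scaling. Other listed genes outside the test also passed this fit by limma, among them Atp10a (0.75, adjusted p = 0.0011), Begain (0.36, 4.84e-04), Dnmt3b (0.21, 0.026) and, as lower, Slc22a3 (-0.36, 0.0030). This fit had no scaling, and its share of all genes called was not taken.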
